A study of Mus musculus with 17 samples.

Results

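The interferon response genes described here are 9 mouse genes, namely Ifit1, Ifit2, Ifit3, Isg15, Gbp2, Ifi207, Irf1, Irf7 and Sp100. They were taken by gene symbol from the platform annotation of the array, which names 8252 genes singly, and they gave 11 of its 12488 probe sets, with 2 probe sets each for Irf7 and Sp100 and 1 for every other gene. All 11 passed the filter on low values, which asked for a value above a floor on at least 3 arrays; Ifi207, above it in 2 of 6 pools without ischemia, passed through the ischemic arrays. RNA came from mouse brain, from white and grey matter supplied by the middle cerebral artery, and was measured on 17 arrays.

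Treated ischemic pools had 1 h of ischemia, then intravenous AEOL 10150, a catalytic antioxidant, and 6 h of reperfusion. Drug control pools had AEOL 10150 without ischemia. Ischemic pools had the ischemia and reperfusion without the drug, and control pools had saline, with tissue taken after 6 h. Each of these 4 groups had 3 arrays, and each array carried RNA pooled from 6 brains, so an array hides the differences between its brains. A further 5 arrays carried 1 brain each, given ischemia and AEOL 10150 (single treated brains, numbered 11, 12, 13, 14 and 16). The labels give no dose, strain, sex or age, and do not say whether the ischemic pools were given saline. Titles and descriptions disagree on the group of 2 arrays, called below the 2 arrays with unlike labels. The text for drug control pool 1 names saline and that for treated ischemic pool 1 names no drug. Numbers disagree too, since treated ischemic pool 2 is described as a first replicate and brain 11 is titled number 4. Groups and pool numbers follow the titles, and brain numbers follow the descriptions.

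Interferons are cytokines, and those of type I are released by cells that sense viral or displaced nucleic acid. Type I interferons act through a cell surface receptor whose signal reaches the interferon-stimulated response element (ISRE) in target promoters. Interferon gamma has a receptor of its own, whose signal reaches the gamma-activated site (GAS). The proteins made include the IFIT proteins, which bind viral RNA and hinder its translation, and ISG15, a ubiquitin-like protein that is joined to other proteins. In brain, microglia, astrocytes, endothelium and neurons can all respond to interferon.

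The promoters show which of the 9 genes carry the letters of these elements close to the start site. Every gene had at least 1 start site in the RefSeq promoter table (build GRCm38.p6), and 12 windows in all, each from 250 bases before to 50 bases after the start. The ISRE was searched on both strands as GAAA, any 2 bases, and GAAA again, and the GAS as TTCNNNGAA. The ISRE was found in 5 of 9 genes, Isg15, Ifit1, Ifit3, Gbp2 and Ifi207, and in 3.99% of 27025 genes with such windows. The GAS was found in 2 of 9 genes, Irf1 and Ifit2, against 9.55% of those genes. Below are the 170 bases before the start of the 5 genes with the ISRE and of Irf1, written 5′ to 3′ on the gene's strand, with the matches in capitals (TTTC forms are the ISRE read from the other strand).
Isg15 (chr4:156200819-156200988, minus strand): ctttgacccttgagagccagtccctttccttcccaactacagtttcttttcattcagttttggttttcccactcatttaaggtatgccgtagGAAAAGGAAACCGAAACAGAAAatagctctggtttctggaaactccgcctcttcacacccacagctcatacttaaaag
Ifit1 (chr19:34640719-34640888, plus strand): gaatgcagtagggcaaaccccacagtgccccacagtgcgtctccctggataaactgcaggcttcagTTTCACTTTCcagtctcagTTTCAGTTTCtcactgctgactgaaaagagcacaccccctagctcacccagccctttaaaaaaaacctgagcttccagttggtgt
Ifit3 (chr19:34583359-34583528, plus strand): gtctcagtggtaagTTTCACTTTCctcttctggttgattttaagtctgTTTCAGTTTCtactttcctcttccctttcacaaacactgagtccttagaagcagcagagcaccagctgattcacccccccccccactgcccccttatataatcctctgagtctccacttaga
Gbp2 (chr3:142620493-142620662, plus strand): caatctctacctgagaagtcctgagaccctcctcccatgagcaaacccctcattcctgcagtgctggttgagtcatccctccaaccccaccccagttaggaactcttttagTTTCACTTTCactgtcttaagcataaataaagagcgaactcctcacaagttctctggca
Ifi207 (chr1:173741810-173741979, minus strand): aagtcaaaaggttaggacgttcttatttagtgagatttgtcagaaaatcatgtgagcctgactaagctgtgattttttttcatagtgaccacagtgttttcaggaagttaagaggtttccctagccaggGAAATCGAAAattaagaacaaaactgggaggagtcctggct
Irf1 (chr11:53769844-53770013, plus strand): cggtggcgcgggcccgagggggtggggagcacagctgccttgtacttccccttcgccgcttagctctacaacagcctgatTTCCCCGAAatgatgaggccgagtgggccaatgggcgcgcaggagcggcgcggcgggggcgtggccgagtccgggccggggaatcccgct
The capitals of Isg15 are 3 overlapping ISRE matches, which begin 78, 72 and 66 bases before the start. Ifit1 and Ifit3 carry 2 separate matches each, with the same letters in both genes, and Gbp2 and Ifi207 carry 1 each. The capitals of Irf1, which begin 90 bases before the start, are the GAS. The GAS of Ifit2 lies 241 bases before the start, outside the length shown for the other genes. A match is a run of letters and was not tested for binding.

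The deposited values are intensities. Each array was scaled to a trimmed mean of 2500, values under the floor (an intensity of 109.5, or 6.77 on the log2 scale) were set to it, and log2 was taken. All levels below are these log2 scaled intensities, compared within a probe set only. Neuron markers matched the labelled tissue, since 12 of 12 measured markers were above the floor on every array. The pools numbered 3 of the drug control, ischemic and control groups stood apart from the pools numbered 1 and 2. Their actin 3′/5′ signal ratio, which rises as RNA breaks down, was 1.15 to 1.19, against 1.33 to 2.14 in the other 6 pools of these groups. Treated ischemic pools 2 and 3 and all single treated brains had been deposited on other intensity scales than the remaining 10 arrays.

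Few of these genes passed the test for ischemia. Ifi207 alone passed in ischemic against control pools, on a difference that rests partly on the floor. In treated ischemic against drug control pools 0 of the 11 probe sets passed, although Ifit1, Ifit2, Ifit3, Isg15 and Ifi207 lay above every drug control pool. Of all probe sets, 3.75% were apart in this direction. Ifi207 passed the filter on low values only through the ischemic arrays. Ifit1 had the largest estimate over both drug arms, 2.99-fold higher, and did not pass after adjustment. Without the drug, the estimates for Ifit1, Ifit3 and Isg15 shrank when control pool 3 was left out, as the values by array show. Leaving out ischemic pool 3 instead raised those of Ifit3 and Isg15, to 0.84 and 2.05. Without all 3 pools numbered 3 that stood apart, the estimates were 1.05 for Ifit1, 0.44 for Ifit3 and 1.19 for Isg15.

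Ifit1 (100981_at), an IFIT protein that binds the 5′ end of viral RNA, had 11.46, 11.30 and 10.91 in treated ischemic pools 1 to 3, against 10.62, 9.59 and 8.58 in drug control pools. It had 11.47, 11.60 and 10.15 in ischemic pools, against 10.46, 10.50 and 7.66 in control pools. The treated ischemic pools lay above all drug control pools, while ischemic pool 3 lay below 2 of the control pools. The log2 difference was 1.63 (SE 0.77, adjusted p = 1) with the drug and 1.53 (SE 0.77, adjusted p = 1) without it, n = 3 arrays a group in limma's fit. Pools of the same number differed by 1.00, 1.10 and 2.49 on the log2 scale between ischemia and control, higher in 3 of 3. Without control pool 3 the difference without the drug was 0.59, and without control pool 2 it was 2.01.

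Ifit2 (103639_at), a related RNA-binding protein, had 11.06, 10.61 and 10.70 in treated ischemic pools, against 10.43, 8.89 and 9.28 in drug control pools. It had 11.43, 10.65 and 9.21 in ischemic pools, against 10.94, 10.23 and 9.36 in control pools. The groups were apart with the drug and overlapped without it. The log2 differences were 1.26 (SE 0.60, adjusted p = 1) with the drug and 0.26 (SE 0.60, adjusted p = 1) without it. Leaving out ischemic pool 1 turned the difference without the drug to -0.24, and leaving out ischemic pool 3 made it 0.87.

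Ifit3 (93956_at), the partner that steadies Ifit1 in human cells, had 12.00, 11.25 and 11.86 in treated ischemic pools, against 11.23, 9.90 and 10.16 in drug control pools. It had 11.69, 11.20 and 10.11 in ischemic pools, against 10.91, 11.10 and 9.82 in control pools. The treated ischemic pools did not overlap the drug control pools, although treated ischemic pool 2 at 11.25 was close to drug control pool 1 at 11.23. The log2 differences were 1.27 (SE 0.50, adjusted p = 1) with the drug and 0.39 (SE 0.50, adjusted p = 1) without it. The second of these was 0.00 without control pool 3, 0.84 without ischemic pool 3 and 0.44 without the 3 pools numbered 3.

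Isg15 (98822_at) had 10.16, 10.59 and 10.04 in treated ischemic pools, against 9.44, 9.86 and the floor in drug control pools. It had 10.26, 10.83 and the floor in ischemic pools, against 8.62, 10.10 and the floor in control pools. The floor values all belong to pools numbered 3, so that ischemic pool 3 could not be told from control pool 3. The log2 differences, in which the floor stands in for those pools, were 1.57 (SE 1.18, adjusted p = 1) with the drug and 0.79 (SE 1.18, adjusted p = 1) without it. Without drug control pool 3 the first was 0.61, and without control pool 3 the second was -0.07. The first reached 2.16 without drug control pool 2, and the second reached 2.05 without ischemic pool 3.

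Gbp2 (104597_at), a guanylate-binding GTPase that acts on vacuoles holding microbes, had 12.08, 11.18 and 11.70 in treated ischemic pools, against 11.55, 10.53 and 10.52 in drug control pools. It had 11.78, 11.40 and 9.81 in ischemic pools, against 11.54, 11.26 and 10.11 in control pools. Both comparisons overlapped. The log2 differences were 0.79 (SE 0.56, adjusted p = 1) with the drug and 0.03 (SE 0.56, adjusted p = 1) without it, and the second was -0.40 without control pool 3.

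Ifi207 (92251_f_at), a member of the family of DNA-binding proteins that holds the sensor Ifi204, lay near the floor. It had 7.59, 7.46 and 7.22 in treated ischemic pools, against 7.16 in drug control pool 1 and the floor in drug control pools 2 and 3. It had 7.99, 7.93 and 7.83 in ischemic pools, against 6.83 in control pool 1 and the floor in control pools 2 and 3. Neither pair of groups overlapped. The log2 difference was 1.13 (SE 0.18, adjusted p = 0.0366) without the drug, higher in 3 of 3 pools of the same number, and 0.52 (SE 0.18, adjusted p = 1) with it. Values set to the floor show no spread, and 2 of 3 control pools were, so the size depends on the floor. With the floor at the 20th percentile the difference was 1.37 and the call was lost (adjusted p = 0.788). It was also lost with the pool number as a block over the 3 groups that it pairs (adjusted p = 0.0643), and when any 1 of the 6 pools was left out. Quantile normalization, median scaling and an intensity trend in the prior variance ended it too (adjusted p = 0.106, 0.139 and 0.243). The name of this probe set marks it as one that may match several related transcripts.

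**Figure D1:**
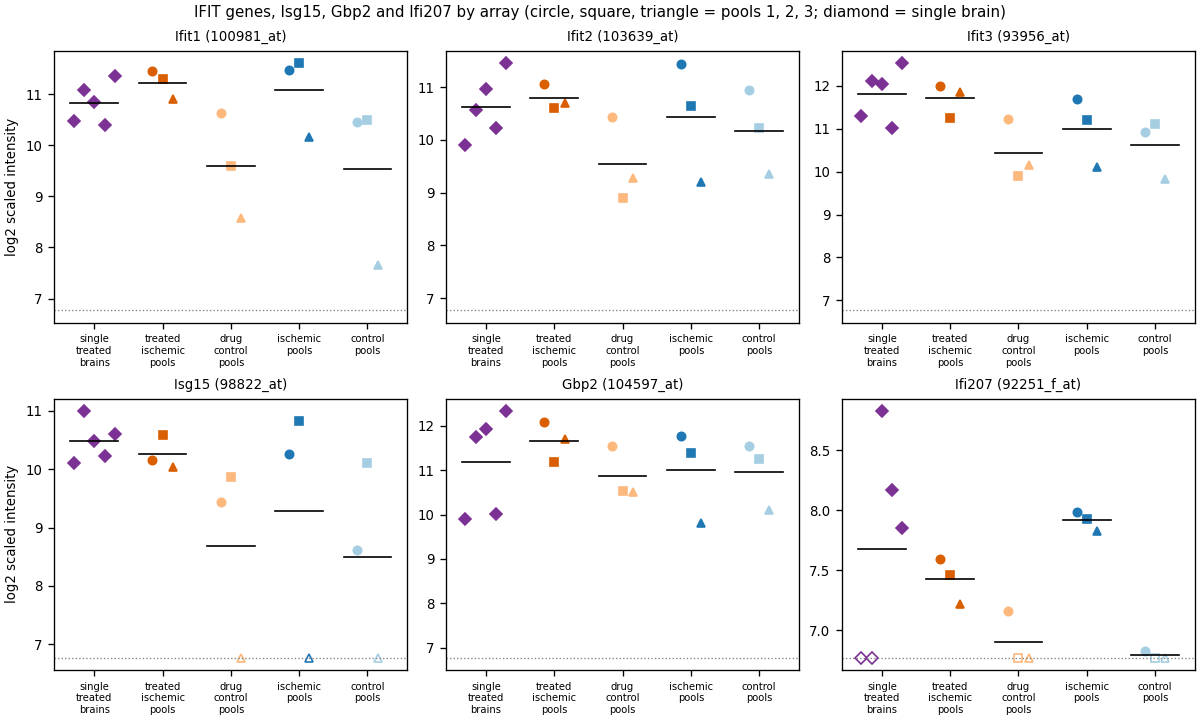
Log2 scaled intensity (y axis) of Ifit1, Ifit2, Ifit3, Isg15, Gbp2 and Ifi207 on each of the 17 arrays, by group. Circles, squares and triangles are pools 1, 2 and 3, diamonds are single treated brains, hollow marks are values set to the floor (dotted line at 6.77) and bars are group means; pool 3 is the lowest of its group for Isg15 in the drug control, ischemic and control pools.

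Irf1 and Irf7 are transcription factors of the response, and Sp100 is a protein of nuclear bodies that interferon induces. Irf1 (102401_at), which binds ISRE-like sites, had 11.52, 11.22 and 11.13 in treated ischemic pools, against 11.04, 11.34 and 11.64 in drug control pools. It had 11.31, 11.38 and 11.76 in ischemic pools, against 10.88, 10.14 and 11.46 in control pools. The groups overlapped in both. The log2 differences were -0.05 (SE 0.32, adjusted p = 1) with the drug and 0.66 (SE 0.32, adjusted p = 1) without it, and the second was 0.31 without control pool 2.

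Irf7 amplifies the type I response and was measured by 2 probe sets. Probe set 104669_at had 10.93, 10.51 and 10.05 in treated ischemic pools, against 10.52, 10.52 and 10.77 in drug control pools. It had 10.23, 10.17 and 10.63 in ischemic pools, against 9.92, 9.53 and 10.69 in control pools. The log2 differences were -0.11 (SE 0.32, adjusted p = 1) with the drug and 0.30 (SE 0.32, adjusted p = 1) without it. Probe set 162202_f_at gave -0.36 (SE 0.52, adjusted p = 1) and 0.38 (SE 0.52, adjusted p = 1). On that probe set the drug control pools read 841.3 to 842.2 on the intensity scale, the closest agreement among the 8428 probe sets over an intensity of 100.

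Sp100 was also measured by 2 probe sets, which gave unlike values. Probe set 101847_at had 9.26, 9.43 and 8.84 in treated ischemic pools, against 7.31, 7.83 and 8.71 in ischemic pools. It had 8.45, 9.12 and 9.15 in drug control pools, against 8.26, 8.04 and 8.92 in control pools. The treated ischemic pools lay above the ischemic pools without overlap, by 1.22 on the log2 scale (SE 0.38, adjusted p = 1), and did not pass after adjustment; 1.72% of all probe sets were apart in this direction. Probe set 101848_g_at ran from 6.77, the floor, to 8.03 over the 12 pools and gave 0.21 (SE 0.42, adjusted p = 1) for the same comparison.

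**Figure D2:**
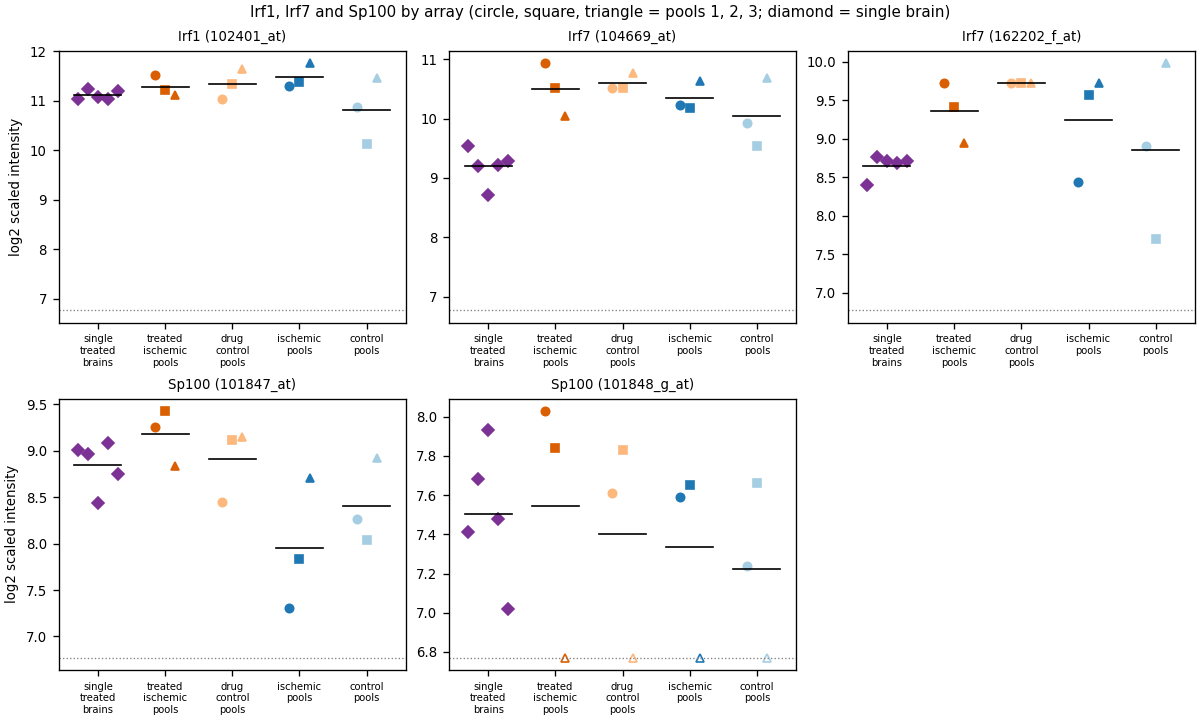
Log2 scaled intensity (y axis) of Irf1 and of both probe sets of Irf7 and Sp100 on each of the 17 arrays, by group, with marks as pool numbers, diamonds as single treated brains and bars as group means. The single treated brains lie below every drug control pool on both Irf7 probe sets.

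Over the 11 probe sets, the test across all 10259 probe sets called 1 (Ifi207) in ischemic against control pools, against 0.214% of all probe sets tested. It called 0 in treated ischemic against drug control pools, where 0.0877% of all were called. At an unadjusted p under 0.05, limma gave 1 of 11 without the drug (4.12% of all) and 2 of 11 with it, Ifit3 and Ifi207 (3.44% of all). Groups did not overlap, with ischemia higher, for 1 probe set without the drug (4.07% of all) and for 5 with it, Ifit1, Ifit2, Ifit3, Isg15 and Ifi207 (3.75% of all). The median log2 difference of the 11 was 0.52 with the drug and 0.38 without it, beside -0.02 and 0.03 over all probe sets tested. Of the 11, 8 were higher with the drug (46.5% of all) and 10 without it (54.2% of all). These probe sets share arrays and do not vary independently. Ifi207 passed the filter on low values only through the ischemic arrays, so its place in these counts is not independent of that filter.

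Averaged over both drug arms, the ischemia difference of Ifi207 was 0.82 (SE 0.13, adjusted p = 0.0172) and that of Ifit1 was 1.58 (SE 0.55, adjusted p = 0.701). Ifit3 stood at 0.83 (SE 0.36, adjusted p = 0.961). Ifi207 was the 1 member called, where 0.448% of all probe sets were. It passed the filter on low values only through the ischemic arrays, so this count is not independent of that filter. Its call was lost with the floor at the 20th percentile (1.42, adjusted p = 0.154), without the 3 pools numbered 3 (adjusted p = 0.231), with an intensity trend in the prior variance (adjusted p = 0.116) and under 4 other settings (adjusted p = 0.0513 to 0.0862). Leaving out 1 pool ended it for 8 of the 12 pools. As a scale for these values, 8 of 8 heat shock and immediate early genes measured as a reference list were called higher in the same average, with a median log2 difference of 3.01. That list was chosen with earlier results known and is no independent evidence.

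**Figure D3:**
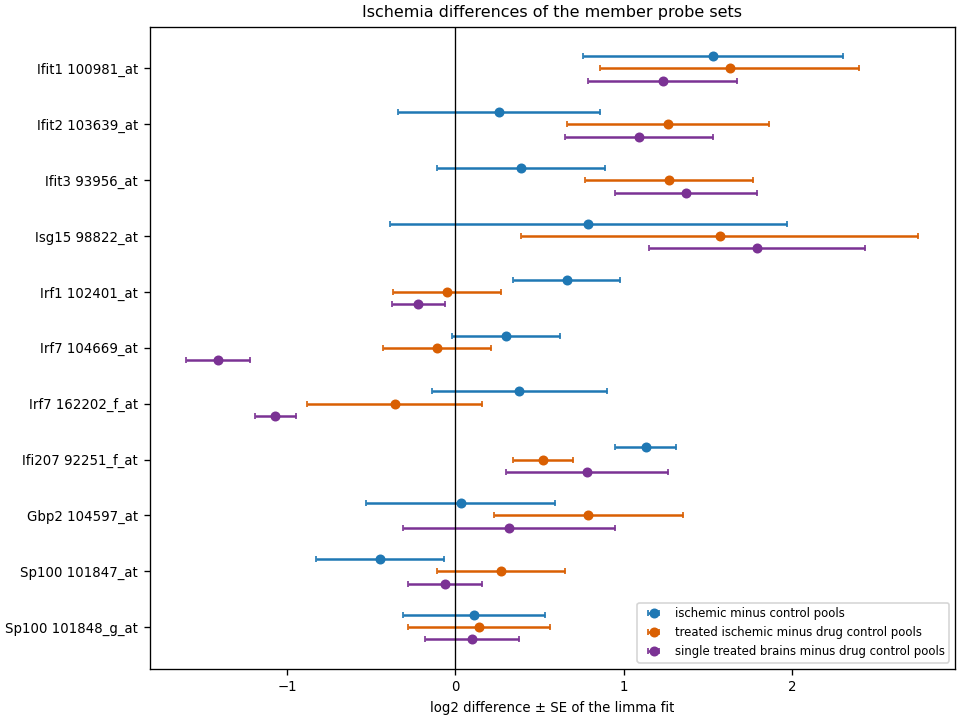
Log2 difference with its standard error (x axis) for each of the 11 probe sets in ischemic minus control pools, treated ischemic minus drug control pools and single treated brains minus drug control pools. The bars of Ifit1 lie above 0 in all 3 comparisons, and both Irf7 probe sets lie below 0 in the single brains.

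The drug itself was compared after ischemia and without it. In treated ischemic against ischemic pools 0 of 11 probe sets passed limma's test (0.00975% of all), with 2 at an unadjusted p under 0.05 (1.47% of all), the Sp100 probe set above and Ifi207. Ifi207 was lower in the treated pools by -0.49 on the log2 scale (SE 0.18, adjusted p = 1), and the groups did not overlap, as for 2.11% of all probe sets in this direction. In drug control against control pools 0 of 11 passed (0.00975% of all) and 0 had an unadjusted p under 0.05 (2.57% of all). The ischemia differences with and without the drug were compared directly by the interaction term, which called 0 of 11 (0% of all). It had 1 unadjusted p under 0.05 (2.08% of all), Ifi207 at -0.61 (SE 0.25, adjusted p = 1). That value depends on the floor. With the floor at the 20th percentile, the ischemia difference of Ifi207 was 1.46 with the drug and 1.37 without it. For Ifit2 and Ifit3, whose estimates were larger with the drug, the interaction was 1.00 (SE 0.84, adjusted p = 1) and 0.88 (SE 0.71, adjusted p = 1). No difference between the arms was detectable for these genes with 3 arrays a group.

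The levels were uneven over the pools of a group. For the mean and counts over the 9 genes, Irf7 and Sp100 entered by the brighter probe set, 104669_at and 101847_at. The mean of the 9 genes on the log2 scale, set against the control pool mean, was 1.14, 0.85 and 0.73 in treated ischemic pools 1 to 3, against 0.51, 0.07 and -0.25 in drug control pools. It was 0.85, 0.79 and -0.10 in ischemic pools, against 0.28, 0.20 and -0.48 in control pools. Ischemic pools 1 and 2 lay above every control pool and ischemic pool 3 lay below 2 of them. Beside the control pool of the same number, each ischemic pool was higher, pool 3 at -0.10 against -0.48. Of the 9 genes, 6, 4 and 2 exceeded every control pool in ischemic pools 1, 2 and 3, where 19%, 22.5% and 29.5% of all probe sets did. In treated ischemic pools 1, 2 and 3, 8, 6 and 6 exceeded every drug control pool, where 20.3%, 23.1% and 21.6% of all did.

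**Figure D4:**
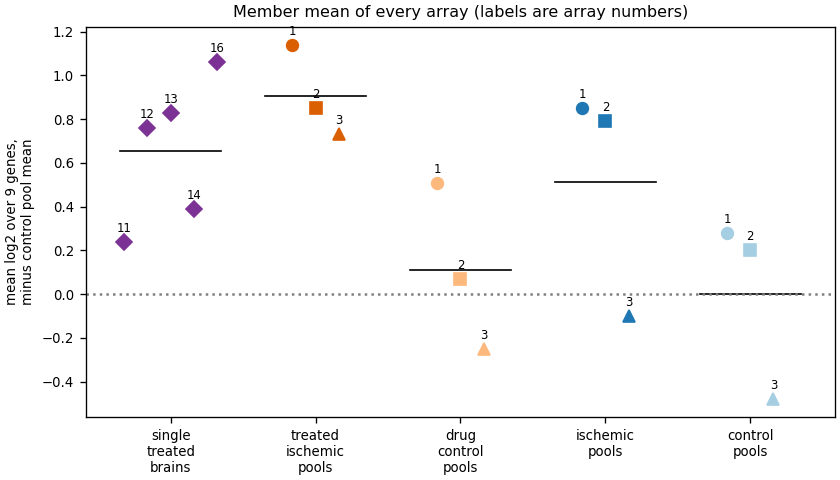
Mean log2 level of the 9 genes on each array minus the mean of the control pools (y axis), by group, with array numbers beside the marks and group means as bars. Pool 3 is the lowest of its group in each pooled group, and lies at -0.10 in the ischemic pools and at -0.48 in the control pools.

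Pool 3 lay on the same side of pools 1 and 2 in the drug control, ischemic and control groups for most members. It was below their mean in all 3 groups for 7 of 11 probe sets (23.8% of all) and above it in all 3 for 3 of 11 (31.8% of all). The low ones were Ifit1, Ifit2, Ifit3, Isg15, Ifi207, Gbp2 and Sp100 101848_g_at. Irf1, Irf7 104669_at and Sp100 101847_at were the high ones. Pool 3 minus the mean of pools 1 and 2 was -2.88 in drug control, -3.77 in ischemic and -2.58 in control pools for Isg15, and 0.45, 0.42 and 0.95 for Irf1. The actin ratio moved with these values. So did the summed log2 level of 12 endothelium markers, which in pool 3 was 13.70 in drug control, 14.00 in ischemic and 13.77 in control pools, each the lowest of its group (14.16 to 14.50 in pools 1 and 2). The sum of 13 lymphocyte markers was the highest of its group in pool 3, at 13.57, 13.84 and 13.43. Of these markers, 6 were at the floor on every array of each group. The sum of 13 neutrophil markers was highest there too, at 13.86, 13.89 and 13.89, although ischemic pool 2 had 13.88. So was that of 12 neuron markers, at 18.10, 17.99 and 18.10. The part of these in the values was not tested. Without these 3 pools, Ifit1 differed by 1.12 (adjusted p = 0.847) with the drug and 1.05 (adjusted p = 0.688) without it, and Isg15 by 0.61 and 1.19.

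**Figure D5:**
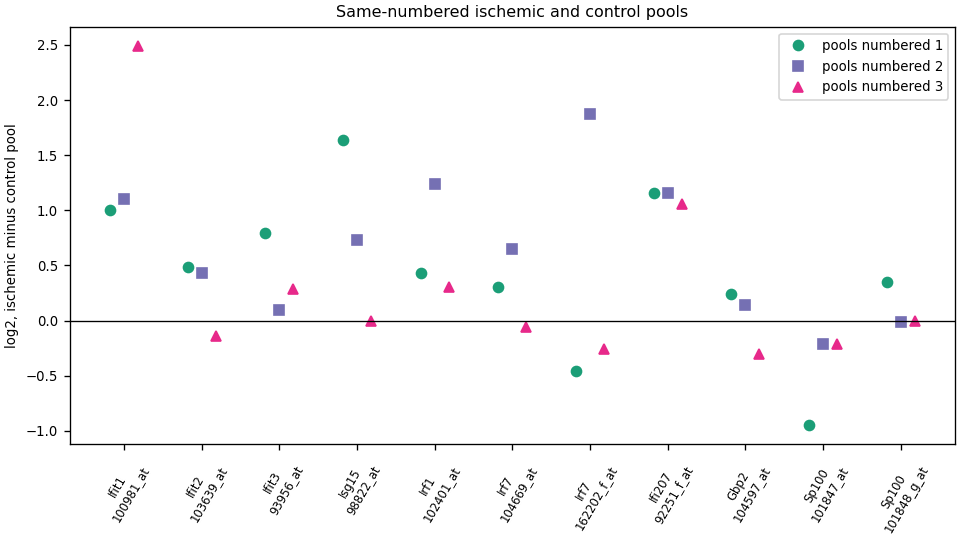
Log2 difference of each ischemic pool minus the control pool of the same number (y axis) for the 11 probe sets (x axis). The 3 marks of Ifi207 lie between 1.06 and 1.16, while those of Isg15 run from 0 to 1.64.

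Some members varied together across the 12 pools. As a description with no test, the Pearson correlation of Gbp2 was 0.91 with Ifit2 and 0.93 with Ifit3, and that of Irf1 with Irf7 104669_at was 0.85. Within groups, after group means were removed, Irf1 correlated at -0.81 with Ifit1 and at -0.78 with Isg15. These points share arrays, and the pools numbered 3 are among them. The genes most like the mean profile of the members over the 12 pools, of 8418 probe sets compared, were Irgm1 at 0.956, Slc1a2 at 0.954, Zc3h15 at 0.922, Cebpd at 0.919 and Tgif1 at 0.906. Those most like Ifit3 were Gbp3 at 0.935, Sat1 at 0.893 and Olfr138 at 0.88.

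The single treated brains, set against the same drug control arrays as the treated ischemic pools were, gave lower Irf7 on both probe sets. Irf7 104669_at had 9.54, 9.20, 8.72, 9.22 and 9.29 in brains 11, 12, 13, 14 and 16, against 10.52, 10.52 and 10.77 in drug control pools. The log2 difference was -1.41 (SE 0.19, adjusted p = 0.0088). Irf7 162202_f_at had 8.40, 8.76, 8.71, 8.68 and 8.71, against 9.72 in each drug control pool, a difference of -1.07 (SE 0.12, adjusted p = 0.00501). The drug control values of this probe set had almost no spread, which lowers that SE. All 5 brains were below all 3 pools on both, as for 12.1% of all probe sets. The test called 2 of 11 members, both of Irf7, and 6.51% of 9907 probe sets. At an unadjusted p under 0.05, limma gave 6 of 11 members and 28.1% of all probe sets. Brain number per array and deposited intensity scale both change between these groups and cannot be told apart from ischemia. In the treated ischemic pools, Irf7 104669_at was -0.11 from the drug control pools. Marker sums also differed without overlap: 13 lymphocyte markers summed to 12.40 to 12.97 in single treated brains, against 13.03 to 13.57 in drug control pools, with 5 of the 13 at the floor on every single brain array. For 7 oligodendrocyte markers the sums were 17.03 to 17.46 in single treated brains, against 16.64 to 16.97 in drug control pools. For 7 astrocyte markers they were 17.04 to 17.31 in single treated brains, against 16.93 to 17.01 in drug control pools. Their part in the Irf7 values was not tested.

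The IFIT genes and Isg15 were higher in the single brains without passing. Ifit1 had 10.48, 11.07, 10.84, 10.40 and 11.36 in the 5 brains, and drug control pool 1 at 10.62 exceeded 2 of them. Its log2 difference was 1.23 (SE 0.44, adjusted p = 0.118). Ifit3 had 11.29, 12.11, 12.05, 11.01 and 12.52, a difference of 1.37 (SE 0.42, adjusted p = 0.0873). Isg15 had 10.10, 11.00, 10.48, 10.22 and 10.61, all above the drug control pools (8.9% of all probe sets), a difference of 1.79 (SE 0.64, adjusted p = 0.122), and passed when the floor was set at the 40th percentile (1.10, adjusted p = 0.0319). Without drug control pool 1, whose description names saline, Ifit1 (1.75, adjusted p = 0.031) and Ifit3 (1.77, adjusted p = 0.044) passed in limma's fit. Isg15 did not pass there (2.16, adjusted p = 0.104). With both Irf7 probe sets, 4 member probe sets passed. Over all probe sets, 645 of 9907 passed with every array kept, and 234 to 983 with 1 array left out in turn.

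Brains differed most in Gbp2 and Ifi207. Gbp2 had 9.91, 11.74, 11.93, 10.02 and 12.34 in brains 11, 12, 13, 14 and 16, an SD of 1.14 on the log2 scale that 1.8% of all probe sets tested exceeded. Ifi207 had the floor in brains 11 and 12 and 8.83, 8.17 and 7.85 in brains 13, 14 and 16 (SD 0.90). Brains 11 and 14 had the lowest Ifit2, at 9.90 and 10.22, against 10.56, 10.96 and 11.45 in brains 12, 13 and 16. They were also lowest in the mean of the 9 genes, 0.24 and 0.39, against 0.76, 0.83 and 1.06. Of the 9 genes, 2, 5, 6, 2 and 6 exceeded every drug control pool in brains 11, 12, 13, 14 and 16, where 21.2%, 24.8%, 23.3%, 22% and 21.3% of all probe sets did. Irf1 stayed between 11.03 and 11.24 in all 5 (SD 0.10).

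Other interferon pathway genes, from lists without the 9 members, gave the wider view. Of 141 listed genes, 85 were on the array and 69 were tested. A listed gene with several probe sets entered by the brightest over the pools. In the pools, limma called 0 of 69 in either drug arm or averaged over both, and 9 were higher and 0 lower at an unadjusted p under 0.05 in the average, where 4.92% of all probe sets had such a p in either direction. The list's median log2 difference was 0.15, beside 0.01 for all probe sets tested. The lists cover interferon ligands, their receptors and JAK-STAT signalling, nucleic acid sensors, other IRFs, antiviral proteins, and GTPases with antigen presentation.

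Socs3, a feedback inhibitor of cytokine signalling, came closest to the threshold. It had 12.37, 12.10 and 12.13 in treated ischemic pools, against 11.24, 10.27 and 9.94 in drug control pools. It had 12.19, 11.75 and 12.63 in ischemic pools, against 11.42, 10.44 and 11.13 in control pools. Neither ischemic group overlapped its controls, as for 3.75% of all probe sets in this direction with the drug and 4.07% without it. The averaged log2 difference was 1.46 (SE 0.26, adjusted p = 0.0507). Cxcl10, a chemokine that draws T cells, had 11.00, 10.87 and 9.23 in treated ischemic pools, against 10.51, 7.29 and the floor in drug control pools. It had 11.26, 10.70 and 8.58 in ischemic pools, against 9.95, 6.85 and the floor in control pools, an averaged difference of 2.25 (SE 0.83, adjusted p = 0.773). The remaining estimates in the average ran from 1.15 for Rsad2, an antiviral enzyme, through 1.03 for Socs1, 0.90 for Iigp1, 0.81 for Irgm1, 0.78 for Ifi30, 0.76 for Ifi204, 0.75 for Mx1 and 0.48 for H2-Eb1. The lowest were -0.68 for Lgals3bp, -0.59 for Adar, -0.45 for Tap2, -0.43 for Ifitm1 and -0.31 for Ifna4. In the single brains against drug control pools, limma called 3 of 69 higher, Socs3 (1.84), Ifi30 (1.88) and Ifnar2 (0.75). It called 1 lower, Ifna2 (-2.01), where 6.51% of all probe sets were called in either direction. Only 1 drug control pool was above the floor for Ifi30, and only 2 single brains were for Ifna2. Brain number per array and deposited intensity scale also change between these groups and cannot be told apart from ischemia.

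Markers of immune cells stood as follows beside these genes. The summed level of 13 microglia markers on the log2 scale was 15.31 to 15.60 in treated ischemic pools, against 15.25 to 15.37 in drug control pools, and 15.32 to 15.52 in ischemic pools, against 15.23 to 15.58 in control pools. For 13 neutrophil markers it was 13.39 to 13.99 in treated ischemic pools, against 13.19 to 13.86 in drug control pools, and 13.61 to 13.89 in ischemic pools, against 13.21 to 13.89 in control pools. Of these neutrophil markers, 3 were at the floor on all arrays of the treated ischemic pools, and S100a8 alone was called higher over both drug arms (1.35, SE 0.23, adjusted p = 0.0331). These microglia and neutrophil ranges overlapped. The astrocyte sum did not overlap with the drug, at 17.02 to 17.17 in treated ischemic pools, against 16.93 to 17.01 in drug control pools. The part of these cells in the values was not tested. In tissue RNA, fewer cells of a type and less RNA per cell cannot be told apart.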

How the data were processed

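RNA of mouse brain was measured on 17 arrays. The authors deposited intensities, 1 per probe set and array; their software and scaling are not stated in what was used here. Per array, 15.2% to 19.3% lay below 0, and 10 arrays shared a trimmed mean of 2500. Each array was rescaled to a trimmed mean of 2500 (2% to 98%), floored at the 25th percentile of the pooled arrays (109.5) and put on the log2 scale; 66 control probe sets were left out. Tests used limma 3.58.1 (R 4.3.3) on all 12 pooled arrays (10259 probe sets) and, separately, on 5 single brains and 3 drug control pools (9907), two-sided, with Benjamini-Hochberg adjustment over all probe sets and a threshold of 0.05. P-values of the first fit measure the spread between these pools. Those of the second rest on a spread taken over single brains and pools together, although a pool hides the differences between its brains. Fits were tested on simulated data. Arrays carry no read depth; their number limits the precision.

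The pools share replicate numbers. Deviations of same-numbered pools correlated at 0.33 to 0.57 among control, drug control and ischemic pools and at -0.34 to 0.40 with treated ischemic pools, so the numbers pair the first 3 groups; no label explains the numbers. With the number as a block on all 12 pools, no member call changed. The members and lists were chosen with earlier results of these data known. All member probe sets are named; of the pathway lists, all genes past the threshold, otherwise the 10 largest rises and 5 largest falls in the averaged ischemia response among probe sets over the floor in 9 or more pools, and the genes most like the members by Pearson correlation. Genes called only in the single brains were named after their values were seen.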

Additional observations from a re-analysis of the deposited data

Results flagged for a closer look

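Irf7 162202_f_at in single treated brain 11 stood apart from the other 4 single brains. It had 8.40, against 8.68 for the nearest brain, and this gap was 0.763 of the range over the 5 brains. Such a gap arises by chance in about 1 in 20 groups, and 11 probe sets were looked at. The drug control pools lay at 9.72 on this probe set.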

How the results depend on the processing

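The call of Ifi207 depended on the setting. The count of member probe sets called without the drug was 1 and became 0 with the floor at the 20th or 40th percentile, quantile normalization, median scaling, an intensity trend in the prior variance, the scale set as a block, without the 2 arrays with unlike labels, without the 3 pools numbered 3, with a replicate block without the treated ischemic pools (adjusted p = 0.0643 for Ifi207), and 0 whichever of the control or ischemic pools was left out. It stayed at 1 with a replicate block on all pools (adjusted p = 0.0209) and with groups from the descriptions (adjusted p = 0.0445). With no filter on dim probe sets it was also 1 (adjusted p = 0.0213). Averaged over both drug arms the count was 1 and became 0 with either floor, median scaling, the trend, the scale set as a block, description groups, the 2 arrays left out and without the 3 pools, and ran from 0 to 1 with pools left out in turn. The averaged count stayed at 1 with the replicate block, quantile normalization and no filter on dim probe sets (adjusted p = 0.00868, 0.0497 and 0.0108). With single brains the count was 2, and 2 to 4 with arrays left out. Over all probe sets, the calls without the drug were 22, and 1 to 19 with 1 control or ischemic pool left out. Averaged over both arms they were 46, and 30 to 44 with 1 pool left out. With single brains they were 645, and 234 to 983 with 1 array left out. The cause of these changes was not tested. At the 40th percentile Ifi207 was not tested, having too few arrays above the floor. The replicate block changed no other member call. The planned floor at the 10th percentile was below 0 and could not be run; the 20th percentile, the pools numbered 3 and the block without treated pools were added after seeing the data.

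Directions turned round only for values that had not passed. Without the drug, Gbp2 was -0.01 with quantile normalization and -0.10 with median scaling, and Sp100 101848_g_at was -0.34 with the floor at the 20th percentile, -0.04 with quantile normalization and -0.01 with median scaling. With the drug, Irf1 was 0.18 and Irf7 104669_at 0.33 with the scale set as a block, and without the pools numbered 3 Irf1 was 0.10 and Sp100 101848_g_at -0.17. Over both arms, Irf7 162202_f_at was -0.11 with the floor at the 40th percentile, -0.08 with quantile normalization, -0.04 with median scaling, -0.12 with description groups and -0.08 with the 2 arrays left out. Irf7 104669_at was -0.02 with description groups and -0.03 with the 2 arrays left out, and Sp100 101847_at was 0.06 with the floor at the 40th percentile. In the single brains, Sp100 101847_at was 0.04 with quantile normalization and with median scaling.

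With 1 array left out in turn, the difference without the drug ran from -0.24 to 0.87 for Ifit2, -0.07 to 2.05 for Isg15, -0.40 to 0.62 for Gbp2, -0.20 to 0.94 for Irf7 162202_f_at and -0.11 to 0.40 for Sp100 101848_g_at. With the drug it ran from -0.20 to 0.10 for Irf1, -0.32 to 0.12 for Irf7 104669_at and -0.17 to 0.53 for Sp100 101848_g_at. Over both arms it ran from -0.04 to 0.26 for Irf7 104669_at, -0.28 to 0.29 for Irf7 162202_f_at, -0.28 to 0.07 for Sp100 101847_at and -0.03 to 0.32 for Sp100 101848_g_at. In the single brains it ran from -0.29 to 0.06 for Sp100 101847_at and -0.21 to 0.31 for Sp100 101848_g_at. With 3 arrays a group, these ranges limit what can be read from any one probe set.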
